A study of Homo sapiens with 36 samples.

Results

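The genes described here are S100A10, its protein partner annexin A2 (ANXA2), and 8 other S100 genes, S100A2, S100A4, S100A6, S100A11, S100A13, S100A14, S100A16 and S100P. These 10 genes, of 62757 listed in each count table, were matched by Ensembl identifier and were followed across 8 groups of HCT-116 cells, a human colorectal carcinoma line. The set was chosen by function and, in part, selected on the S100A10 counts of this experiment, which were lower with the degrader #11 than with control esiRNA in FBXW7 knockout cells under oxaliplatin (OXPT), so that contrast is given below as a description without a test. Of the 10 genes, 9 passed the expression filter, a mean of at least 64 counts in at least 1 group, and S100P did not.

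Messenger RNA was sequenced from 36 libraries, of which 24 fall into 8 groups of 3. The cells were wild type (WT) or carried the FBXW7 knockout made by Ubigene (KO), FBXW7 being a substrate adaptor of an SCF ubiquitin ligase. KO cells received esiCT (control esiRNA) for 48 h, esiHDAC4 (esiRNA against HDAC4) for 48 h, or esiCT together with PROTAC #11, a compound directed against HDAC4, and each of these was left untreated, meaning solvent alone, or received OXPT at 50 µM for the last 24 h. In the study #11 also degraded the other class IIa HDACs, so it is not specific to HDAC4 as esiHDAC4 is meant to be. The dose of #11 was 1 µM in the treatment entries and 10 µM in the description entries, and this was not settled. WT cells were untreated or received OXPT, and their esiRNA was not settled because titles name control esiRNA while treatment entries name esiHDAC4. The 12 other WT libraries have titles and treatment entries that give opposite OXPT states, so they enter no comparison.

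S100 proteins are small calcium-binding proteins with a pair of EF-hand motifs that usually work as dimers and change the activity of the proteins they bind. S100A10 is the exception that no longer responds to calcium, and it forms a tetramer with annexin A2, a calcium-dependent phospholipid-binding protein, at the inner face of the plasma membrane, where the complex is known for anchoring membrane proteins and for promoting plasmin formation at the cell surface. Most S100 genes lie in one cluster on the long arm of chromosome 1, and many are expressed in colorectal epithelium and its tumours.

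In the GENCODE annotation of GRCh38, S100A10 (ENSG00000197747.9) lies on chromosome 1 at 151982915 to 151993859 on the minus strand. S100A11 (152032506 to 152047907), S100A6 (153534599 to 153536244), S100A4 (153543613 to 153550136), S100A2 (153561108 to 153567890), S100A16 (153606886 to 153613145), S100A14 (153614255 to 153616986) and S100A13 (153618787 to 153631360) follow on the same strand, so that 8 members span 1648.4 kb. ANXA2 (ENSG00000182718.18) lies apart on chromosome 15 at 60347134 to 60402883 on the minus strand, and S100P (ENSG00000163993.7) on chromosome 4 at 6693878 to 6697170 on the plus strand. S100A13 shares 24.2% of its exon bases with a lncRNA on the same strand and 10.6% with S100A1 on the opposite strand, so its counts are less certain than those of the other members. ANXA2 has processed copies, of which ANXA2P2 had a mean of 31.2 CPM, the TMM-normalised count per 1e+06 gene counts, against 2096 for ANXA2.

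Promoter sequence is shown for S100A10 and ANXA2 because they encode the complex, for S100A11 as the member most alike to S100A10 across libraries, and for S100A2 because the window shown shares AP-1 letters with that of ANXA2. Each line gives RefSeq sequence of GRCh38.p14 from the 250 bases before the transcription start, 5′ to 3′ on the minus strand, except that ANXA2 is limited to 30 bases because its window overlaps an annotated exon. Capitals mark AP-1 letters (TGANTCA), the GC box (GGGCGG) and the TATA box (TATAAA), searched on both strands.
S100A10, chr1:151993860-151994109: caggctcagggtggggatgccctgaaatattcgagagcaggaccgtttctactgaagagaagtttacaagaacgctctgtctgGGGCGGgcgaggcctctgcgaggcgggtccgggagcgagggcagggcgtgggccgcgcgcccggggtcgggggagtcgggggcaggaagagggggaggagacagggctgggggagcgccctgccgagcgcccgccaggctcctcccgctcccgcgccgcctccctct
S100A11, chr1:152037005-152037254: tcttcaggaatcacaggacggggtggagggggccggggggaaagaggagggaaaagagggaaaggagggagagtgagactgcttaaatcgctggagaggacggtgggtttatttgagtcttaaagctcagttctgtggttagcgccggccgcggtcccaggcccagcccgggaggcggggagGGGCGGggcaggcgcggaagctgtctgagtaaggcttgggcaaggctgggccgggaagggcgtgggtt
S100A2, chr1:153565845-153566094: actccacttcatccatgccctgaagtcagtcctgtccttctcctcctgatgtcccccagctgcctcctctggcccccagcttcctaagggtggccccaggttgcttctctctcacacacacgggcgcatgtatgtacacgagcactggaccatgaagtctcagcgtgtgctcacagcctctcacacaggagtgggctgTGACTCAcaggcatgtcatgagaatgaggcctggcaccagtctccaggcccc
ANXA2, chr15:60398095-60398124: gcgggccggggTGAGTCAcccctgacttgg
The S100A10 window is outside annotated genes, whereas those of S100A11 and S100A2 lie in introns of their own longer transcripts. AP-1 letters were found 127 bases upstream of ANXA2 and 52 bases upstream of S100A2, and in 6.57% of 35116 promoter windows of the same length. The GC box was found 167 bases upstream of S100A10, 68 bases upstream of S100A11 and 3 times upstream of ANXA2 (at 78, 73 and 68 bases), as well as in windows of S100A6, S100A13 and S100A16, and in 42.6% of all windows. TATA letters were found 31 bases upstream of both ANXA2 and S100A4, 29 bases upstream of S100A13 and 28 bases upstream of S100P, and in 10.7% of all windows. The letters of the MYC E-box (CACGTG) and of the MEF2 motif were found in no member, against 6.34% and 2.36% of all windows. S100A2, S100A13 and S100A16 had more than 1 window, and each of their matches was absent from the other windows of that gene. These matches describe letters in a window and not bound sites.

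Unstranded gene counts totalled 10725966 to 20527222 per library. Epithelial markers were all detected (6 of 6 tested), with a summed level of 5250 to 22000 CPM, while the 4 blood markers summed to at most 0.833 CPM and the 3 endothelial markers to at most 2.37 CPM. The 4 fibroblast markers summed to 25.8 to 78 CPM. Of these COL1A1 was the only one tested, with group means of 35.05 to 56.6 CPM. CDKN1A, a p53 target, was called higher with OXPT in every background, with a log2 fold change of 2.55 to 3.18. HDAC4 mRNA was 19.1 ± 5.46 CPM (SD, n = 3) with esiCT and 10.9 ± 3.48 CPM with esiHDAC4 in untreated KO cells, a difference that was not called (log2 fold change −0.82, SE 0.24, edgeR quasi-likelihood adjusted p = 0.561). FBXW7 counts over the whole gene were 16.9 ± 1.34 CPM in KO esiCT and 21.1 ± 3.6 CPM in WT, and do not check the deletion itself.

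Replicate 3 of untreated WT cells and replicate 3 of KO esiCT with OXPT stood apart for these genes. Each of them was the highest of the 24 libraries for 5 of the 10 members, which covers all 10. The summed level of the 9 S100 genes was 7566 CPM in the WT library against 2110 and 1384 CPM in its group, and 7943 CPM in the KO library against 2632 and 2818 CPM. The same libraries had the lowest TMM normalisation factors, 0.851 and 0.789, the others lying between 0.907 and 1.104. Epithelial markers summed to 22000 CPM in the KO library, the highest value of all, and to 11100 CPM in the WT library. Keratins make up most of that sum. In the group of the KO library KRT8, KRT18 and KRT19 had means of 6256, 2911 and 4818 CPM. EPCAM, CLDN7 and CDH1 had means of 258, 270 and 56.5 CPM there. The KO library also had the largest share of unmapped reads, 22.3%, and 23.6% of its gene counts lay in genes with under 2000 exon bases against 20.7% and 21.1% in its group. The part of these features in the results was not tested, and values without them are given beside the results that they change most. Nothing in the GEO labels says that replicates are separate cultures, so p-values measure the spread between these libraries.

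Per kilobase of exon, S100A6, which regulates cell cycle progression and cytoskeletal dynamics, was the most abundant member at 1552 CPM per kb over the 24 libraries. S100A11, a partner of annexin A1, followed at 335.6, S100A10 at 283.9, S100A4 (a motility factor that binds non-muscle myosin) at 275.8, S100A14 at 239.4, S100A16 at 189.1 and ANXA2 at 181.1 CPM per kb. S100A2, known as a p53-regulated gene, stood at 23.9 CPM per kb and S100A13, known for the release of FGF1, at 9.61 CPM per kb. The order of the members from S100A11 to ANXA2 changed between groups and was not tested. In KO #11 with OXPT, for example, S100A4 was at 379.1 CPM per kb and S100A10 at 190.5, while in KO esiCT with OXPT they were at 327.1 and 456.4. S100P, a ligand of the receptor RAGE, had a total of 122 reads in the 24 libraries and at most 4.25 CPM, which was reached in replicate 3 of untreated WT cells.

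**Figure D1:**
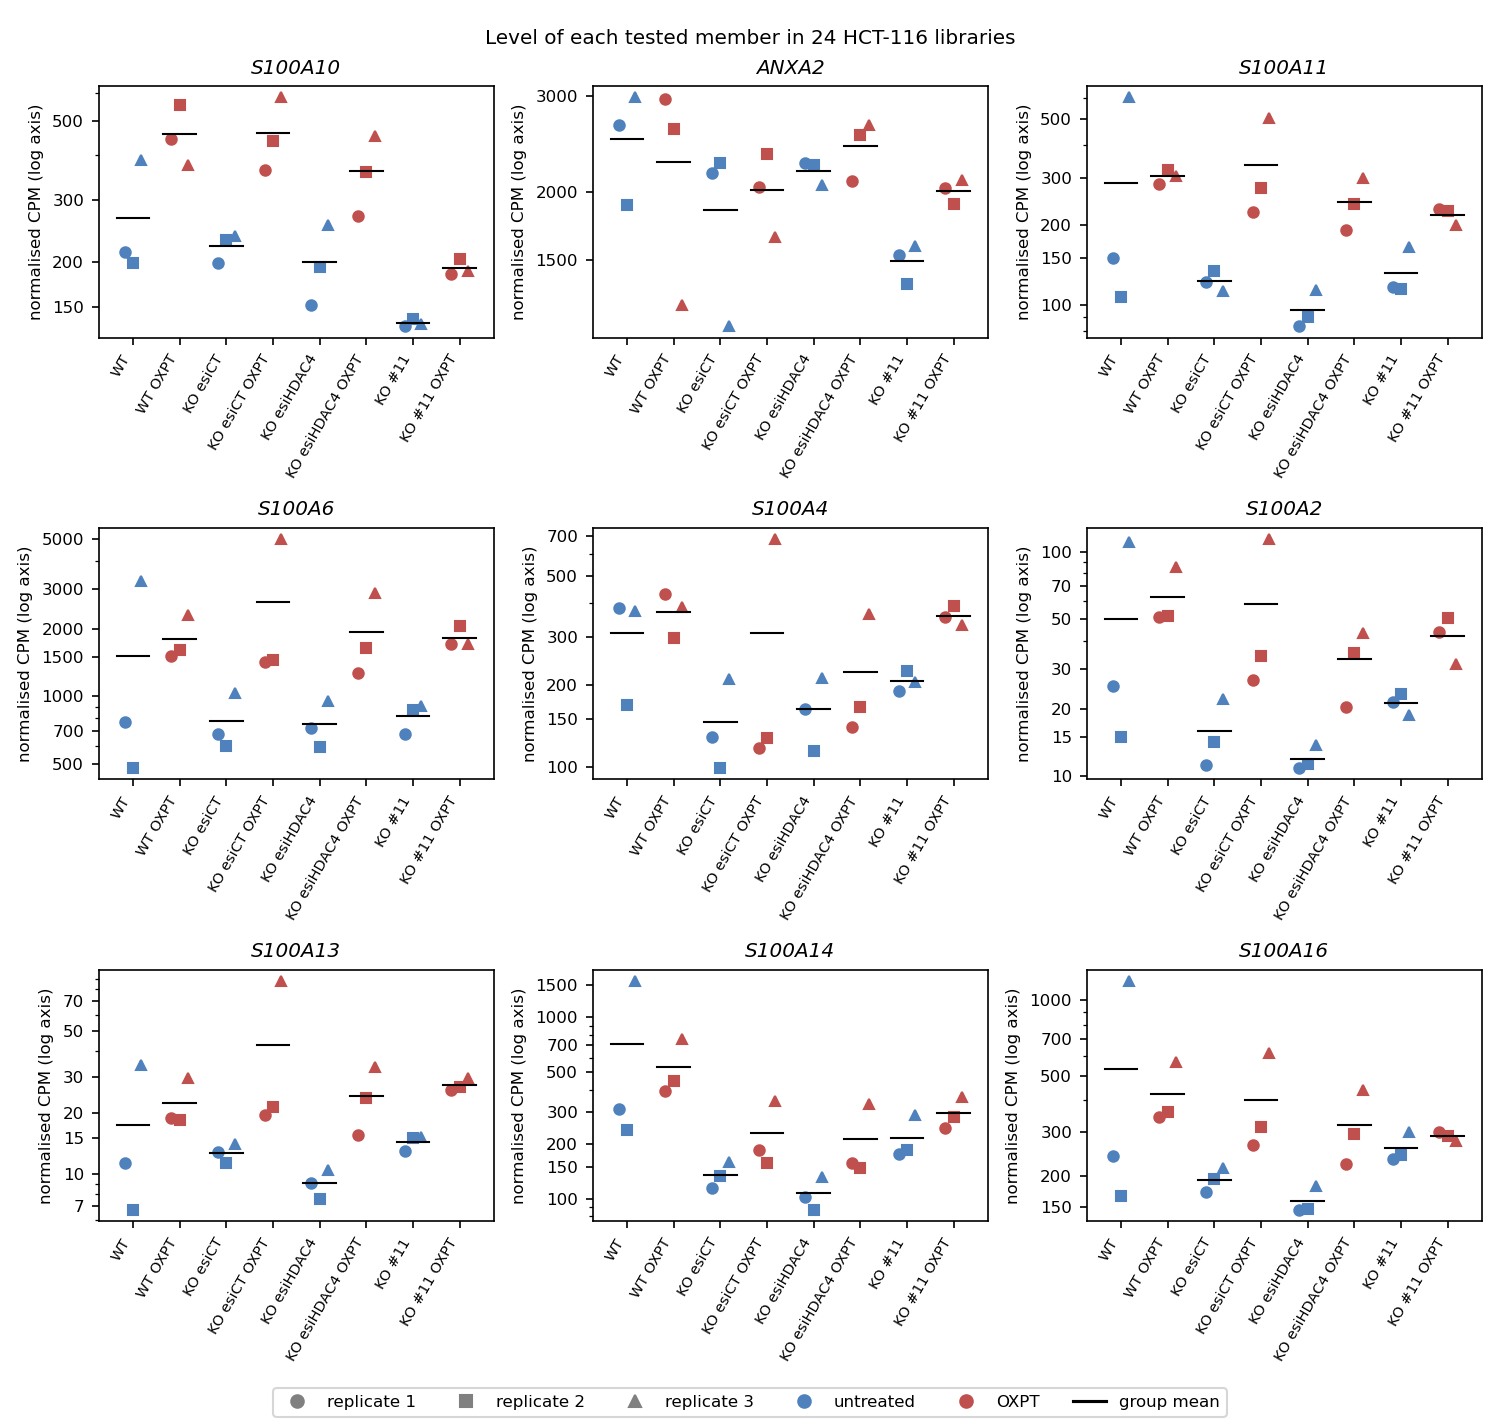
Level of the 9 tested members in every library, as TMM-normalised CPM on log axes, with 1 panel per gene and 3 libraries per group (circles, squares and triangles for replicates 1, 2 and 3; blue untreated, red OXPT; black line, group mean). The highest point of every panel is the triangle of untreated WT or of KO esiCT with OXPT, and S100A10 is lowest in untreated KO #11, at a mean of 135 CPM.

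The first comparison asked how the members responded to OXPT in each background. All 9 tested members had a positive fold change in the 3 KO backgrounds and 6 of 9 in WT, and the calls (edgeR quasi-likelihood test, false discovery rate below 0.05 by the Benjamini-Hochberg method, and more than 1.5-fold) were made for S100 genes and not for ANXA2. In KO esiCT, 5 of 9 members were called higher, against 6.23% of all 12356 genes tested. In KO esiHDAC4 the count was 2 of 9 against 6.44%, and it was 0 of 9 in KO #11, against 5.94%, and 0 of 9 in WT, against 5.1%. At an unadjusted p under 0.05, 1 member passed in WT and 1 in KO #11, beside 3056 and 2900 of the 12356 genes. DESeq2 called 1 and 0 members higher, against 5.66% and 7.41% of all genes. S100A10 is among the 5 of KO esiCT, but its value there is a description, since it was chosen with those OXPT libraries. The median log2 fold change of the members was 1.08 in KO esiCT, 1.00 in KO esiHDAC4, 0.72 in KO #11 and 0.26 in WT, beside medians over all genes between −0.06 and 0.02.

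S100A10 itself stood at 200, 231 and 237 CPM in the 3 untreated KO esiCT libraries and at 363, 440 and 583 CPM with OXPT. In KO esiHDAC4 it stood at 152, 194 and 254 CPM untreated and at 270, 359 and 453 CPM with OXPT. In KO #11 it stood at 132, 138 and 134 CPM untreated and at 186, 204 and 189 CPM with OXPT. In these 3 KO backgrounds every OXPT library was above every untreated library. In WT it stood at 214, 199 and 387 CPM untreated and at 446, 554 and 377 CPM with OXPT, and the groups overlapped because replicate 3 was high when untreated and low with OXPT.

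The OXPT difference of S100A10 was called in KO esiHDAC4, with a log2 fold change of 0.85 (SE 0.25, adjusted p = 0.0328). That call was lost when any of 5 libraries was left out, 4 of them of these groups (KO esiHDAC4 OXPT replicate 2 or 3, KO esiHDAC4 untreated replicate 1 or 2, and KO #11 untreated replicate 2), with values of 0.64 to 1.04. In WT the log2 fold change was 0.78 (SE 0.25, adjusted p = 0.0525), and it was called at 1.15 (SE 0.24, adjusted p = 0.00275) without replicate 3 of untreated WT cells, at 0.79 (adjusted p = 0.0322) without replicate 3 of KO esiCT with OXPT, and with DESeq2 (0.74, adjusted p = 0.0404). In KO esiCT, whose OXPT libraries were also used to choose S100A10, the log2 fold change was 1.05 (SE 0.26) with all libraries and 0.85 (SE 0.26) without replicate 3 with OXPT. In KO #11, whose OXPT libraries were used in the same way, it was 0.52 (SE 0.25).

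ANXA2, which binds S100A10 and shields it from degradation, showed no such pattern. Its untreated libraries stood at 2166, 2260 and 1138 CPM in KO esiCT, and its OXPT libraries at 2042, 2347 and 1654 CPM. In WT the values were 2645, 1891 and 2976 CPM untreated and 2953, 2610 and 1241 CPM with OXPT. The groups overlapped in both backgrounds, and in each the lowest library was a replicate 3. The log2 fold change with OXPT was 0.12 in KO esiCT (95% confidence interval −0.46 to 0.70), −0.14 in WT (−0.72 to 0.44), 0.15 in KO esiHDAC4 (−0.43 to 0.73) and 0.43 in KO #11 (−0.15 to 1.01). In KO #11 every OXPT library of ANXA2 (2031, 1898 and 2104 CPM) was above every untreated one (1535, 1360 and 1593 CPM), and it was not called (adjusted p = 0.382).

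S100A11 stood at 122, 135 and 113 CPM in untreated KO esiCT and at 225, 276 and 506 CPM with OXPT, a log2 fold change of 1.44 (SE 0.43, adjusted p = 0.0337). In KO esiHDAC4 it stood at 83.1, 89.7 and 114 CPM untreated and at 191, 240 and 302 CPM with OXPT (log2 fold change 1.35, SE 0.43, adjusted p = 0.0439). In KO #11 it stood at 117, 115 and 166 CPM untreated and at 229, 227 and 200 CPM with OXPT (log2 fold change 0.72, SE 0.42, adjusted p = 0.324). Every OXPT library exceeded every untreated library in these 3 backgrounds. In WT the OXPT libraries lay close together at 286, 321 and 307 CPM, and the untreated libraries stood at 150, 107 and 605 CPM, so 1 untreated library was above all that had received OXPT.

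S100A6 stood at 680, 603 and 1039 CPM in untreated KO esiCT and at 1428, 1446 and 5007 CPM with OXPT, a log2 fold change of 1.76 (SE 0.55, adjusted p = 0.0431). S100A2 was called higher in the same background, from 15.8 ± 5.56 to 58.2 ± 48.1 CPM (log2 fold change 1.87, SE 0.58, adjusted p = 0.0401). S100A13 was called higher as well, from 12.8 ± 1.38 to 42.9 ± 39.0 CPM (log2 fold change 1.74, SE 0.52, adjusted p = 0.0333). Leaving out 1 of the 24 libraries at a time kept the call in 20 fits for S100A11, 20 for S100A13, 15 for S100A2 and 9 for S100A6, and each of the 4 lost it without KO esiCT OXPT replicate 3 and without any 1 of the untreated KO esiCT libraries. The S100A11 call in KO esiHDAC4 held in 8 of 24 fits, with values of 1.17 to 1.51. For S100A6, S100A2 and S100A13 replicate 3 was far above the other OXPT libraries, for instance 87.8 CPM of S100A13 against 19.6 and 21.2 CPM. S100A4, S100A14 and S100A16, the last 2 being epithelial S100 proteins, were not called in KO esiCT, with log2 fold changes of 1.08, 0.76 and 1.05 and adjusted p of 0.189, 0.378 and 0.177.

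**Figure D2:**
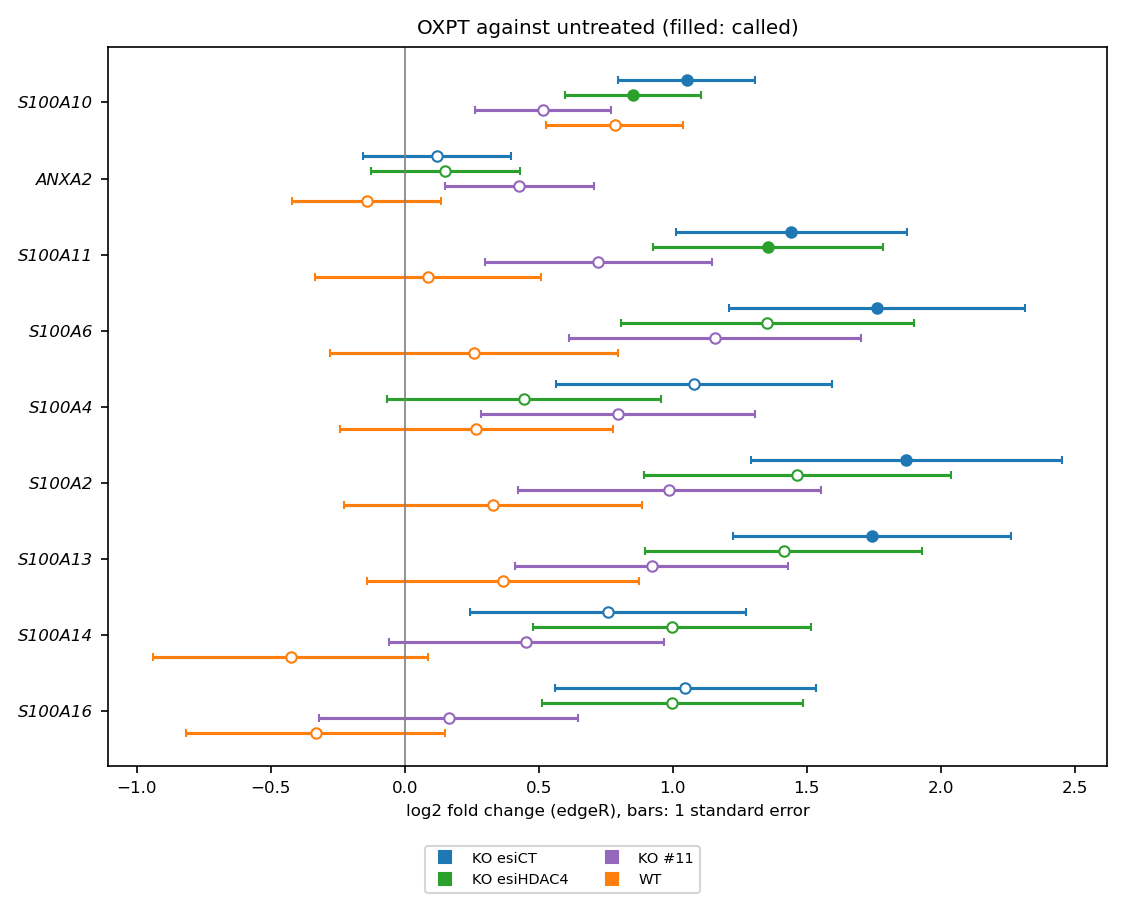
Log2 fold change of OXPT against untreated for the 9 tested members (rows) in KO esiCT, KO esiHDAC4, KO #11 and WT (colours), with bars of 1 standard error and filled points for called genes. The points of KO esiCT and KO esiHDAC4 lie right of 0 for every gene, ANXA2 lies nearest to 0 among the KO esiCT points at 0.12, and the WT points of S100A14 and S100A16 lie left of 0 at −0.43 and −0.33.

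Non-overlap of the groups, which uses no model, ordered the KO backgrounds differently from the calls. Every OXPT library was above every untreated library for 6 of 9 members in KO esiCT, against 15.3% of all genes, for 7 of 9 in KO esiHDAC4, against 18.8%, and for 7 of 9 in KO #11, against 22.4%. In WT this held for 0 of 9 members, against 11.5% of all genes. In KO #11, where no member was called, the OXPT libraries of S100A6 stood at 1717, 2058 and 1705 CPM and the untreated libraries at 683, 868 and 907 CPM (log2 fold change 1.16, SE 0.54, adjusted p = 0.204).

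Most of these calls changed when 1 of the 2 libraries that stand apart was left out. Without replicate 3 of untreated WT cells, 5 of 9 members were called higher with OXPT in WT, against 8.93% of all genes, namely S100A10, S100A11 (log2 fold change 1.25, adjusted p = 0.0054), S100A6 (1.54, adjusted p = 0.0299), S100A2 (1.66, adjusted p = 0.0268) and S100A16 (1.07, adjusted p = 0.0293). S100A16 thereby turned from −0.33 to 1.07. Without replicate 3 of KO esiCT with OXPT, 0 of 9 members were called in KO esiCT, against 3.97% of all genes, and the fold change of S100A4 turned from 1.08 to −0.25. With both left out, an alternative chosen after seeing the data, the counts called higher were 2 of 9 in KO esiCT (S100A10 and S100A11) against 5.92%, 6 of 9 in WT against 11.8%, 7 of 9 in KO esiHDAC4 against 10.2% and 4 of 9 in KO #11 against 8.52%. S100A11 was called in all 4 backgrounds of that fit, with log2 fold changes of 1.04 in KO esiCT, 1.25 in WT, 1.33 in KO esiHDAC4 and 0.70 in KO #11, and adjusted p of 0.00251, 0.000742, 9.35e-05 and 0.0168. An edgeR fit of replicates 1 and 2 alone called 5 of 9 members higher in KO esiCT, against 9.08% of all genes. These were S100A10, S100A11 (0.97, adjusted p = 0.0024) and S100A6 (1.17, adjusted p = 0.00276). S100A2 (1.26, adjusted p = 0.00591) and S100A16 (0.67, adjusted p = 0.0222) were the others. S100A13 was not called there (0.76, adjusted p = 0.0522).

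**Figure D3:**
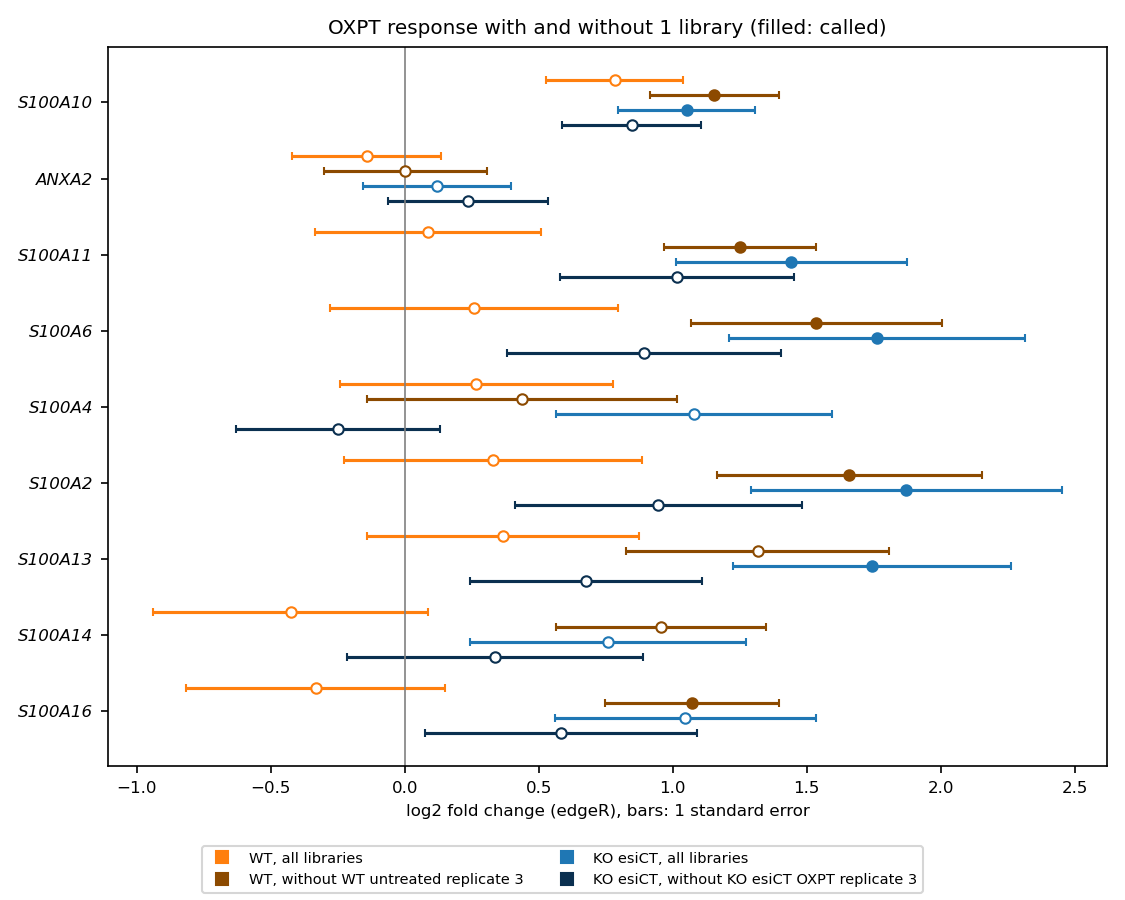
Log2 fold change of OXPT against untreated, with bars of 1 standard error, for WT with and without replicate 3 of untreated WT cells and for KO esiCT with and without its replicate 3 with OXPT (filled, called). Leaving out 1 library moves S100A6 from 0.26 to 1.54 in WT and from 1.76 to 0.89 in KO esiCT, while ANXA2 stays between −0.14 and 0.23 in all 4 fits.

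Libraries with the same replicate number had positively correlated deviations in the OXPT comparisons, but not always more so than libraries of different number. Different numbers reached r of 0.561 in WT and 0.353 in KO esiHDAC4, above the lowest same-number values of 0.176 and 0.202. In KO esiCT and KO #11 they reached 0.316 and 0.217, below the lowest same-number values of 0.325 and 0.275. With the number as a block, S100A10 was called higher with OXPT in WT (log2 fold change 0.83, adjusted p = 0.0123), the only one of 9 members, against 7.07% of all genes. The count in KO esiHDAC4 became 5 of 9 (S100A10, S100A11, S100A6, S100A2 and S100A13) against 8.76%, and in KO #11 it became 1 of 9 (S100A6, log2 fold change 1.20, adjusted p = 0.0425) against 8.26%.

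The responses were then compared between genotypes and treatments. The genotype by OXPT term, KO esiCT response minus WT response, was positive for 9 of 9 members with a median of 1.36, but no gene at all was called (0% of those tested) and the smallest unadjusted p of a member was 0.0347, for S100A11. With both libraries that stand apart left out, the term was positive for 1 of 9 members, ANXA2. No gene was called for the #11 by OXPT term (0%) or for the esiHDAC4 by OXPT term (0%). At an unadjusted p under 0.05 the 3 terms had 201, 863 and 19 genes, and DESeq2 called 0, 36 and 0, no member among them. For S100A10 the terms were 0.27 (SE 0.36), −0.54 (SE 0.36) and −0.20 (SE 0.36), given as a description since they use the libraries that chose the gene.

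The second comparison asked what the degrader and the esiRNA did to the members in KO cells. Under OXPT, the contrast that chose them, S100A10 had 186, 204 and 189 CPM with #11 against 363, 440 and 583 CPM with esiCT, a log2 difference of −1.26 (SE 0.26). That difference was −1.08 (SE 0.26) without replicate 3 of KO esiCT with OXPT. Of the other 8 tested members, the nearest in size were S100A13 (−0.64) and S100A11 (−0.62), whose groups overlapped, and ANXA2 had means of 2011 and 2015 CPM. Without the same library S100A13 turned to 0.40 and S100A11 was at −0.22, S100A14 moved from 0.38 to 0.78 and S100A4 from 0.21 to 1.52, and 5 of 9 members were positive rather than 2 of 9. Over all genes 0.121% were called in that contrast.

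Without OXPT, in libraries that did not choose the members, S100A10 stood at 132, 138 and 134 CPM with #11 and at 200, 231 and 237 CPM with esiCT. All 3 #11 libraries were below all esiCT libraries, as for 14.8% of all genes, and the log2 difference was −0.72 (SE 0.25, 95% confidence interval −1.25 to −0.19), which was not called (adjusted p = 0.18). It was called with both libraries that stand apart left out (−0.71, SE 0.20, adjusted p = 0.0453), where 4.72% of all genes were called. No other member had a negative difference of that size, ANXA2 being at −0.31 (SE 0.28) and the other 7 between 0.08 (S100A6) and 0.68 (S100A14). With number 3 left out of every group, ANXA2 was at −0.60 and was called lower (adjusted p = 0.0401) beside S100A10 at −0.66 (adjusted p = 0.0278). In that fit 2 of 9 members were called, against 14.5% of all genes. The untreated esiCT library of that number was the lowest of all for ANXA2 at 1138 CPM. With all libraries none of the 9 members was called with #11 in untreated cells, against 0.51% of all genes. At an unadjusted p under 0.05, S100A10 was the 1 member that passed, beside 1705 of the 12356 genes tested. DESeq2 called 0 members, against 3.31% of all genes.

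With esiHDAC4 the S100A10 libraries overlapped those of esiCT both untreated and under OXPT. The log2 difference was −0.16 (SE 0.25, 95% confidence interval −0.68 to 0.37) untreated and −0.36 (SE 0.25) under OXPT, the latter again sharing the KO esiCT OXPT libraries with the choice of members. No member was called in either comparison, against 0.00809% of all genes untreated and 0% under OXPT, and none had an unadjusted p under 0.05 (over all genes 394 and 380 did, and DESeq2 called 40 and 9 genes). The members' median was −0.28 untreated and −0.44 under OXPT, and S100A13 was the only one whose untreated esiHDAC4 libraries all lay below those of esiCT, as for 12.1% of all genes. The median under OXPT rests on replicate 3 of KO esiCT with OXPT, since without it 7 of 9 members were positive rather than 1 of 9, and S100A10 was at −0.15.

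Set directly against each other, #11 and esiHDAC4 differed for S100A10 by −0.57 (SE 0.25, adjusted p = 0.299) in untreated cells, with all 3 #11 libraries lower. Under OXPT the difference was −0.90 (SE 0.26), again with all 3 #11 libraries lower. ANXA2 was lower in all 3 #11 libraries too when untreated, at 1535, 1360 and 1593 CPM against 2259, 2244 and 2061 CPM with esiHDAC4 (log2 difference −0.55, SE 0.28, adjusted p = 0.372). In contrast, 5 members, S100A2, S100A11, S100A13, S100A14 and S100A16, were higher in all 3 untreated #11 libraries than in all untreated esiHDAC4 libraries, with log2 differences of 0.47 to 1.02. Over all genes 21.4% were higher and 19.3% lower without overlap in that comparison. No member was called untreated, against 1.17% of all genes. At an unadjusted p under 0.05, 1 member passed, beside 1816 of the 12356 genes tested. DESeq2 called 0 members, against 3.71% of all genes. Under OXPT, where 0.0971% of all genes were called, S100A10 was not called, but DESeq2, the replicate block, and leaving out replicate 3 of untreated WT cells or both libraries that stand apart each called it lower, which is a description since the #11 libraries chose the gene. HDAC4 mRNA was higher with #11 than with esiHDAC4 in both (log2 difference 1.11 and 2.10, adjusted p = 0.0342 and 0.000733). Under OXPT HDAC4 was also called higher with #11 than with esiCT (1.36, edgeR adjusted p = 0.0383), and its esiHDAC4 difference from esiCT was −0.74, not called. With OXPT itself HDAC4 was called lower in KO esiCT (−1.56) and KO esiHDAC4 (−1.48), and it was not called in KO #11 (−0.50).

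**Figure D4:**
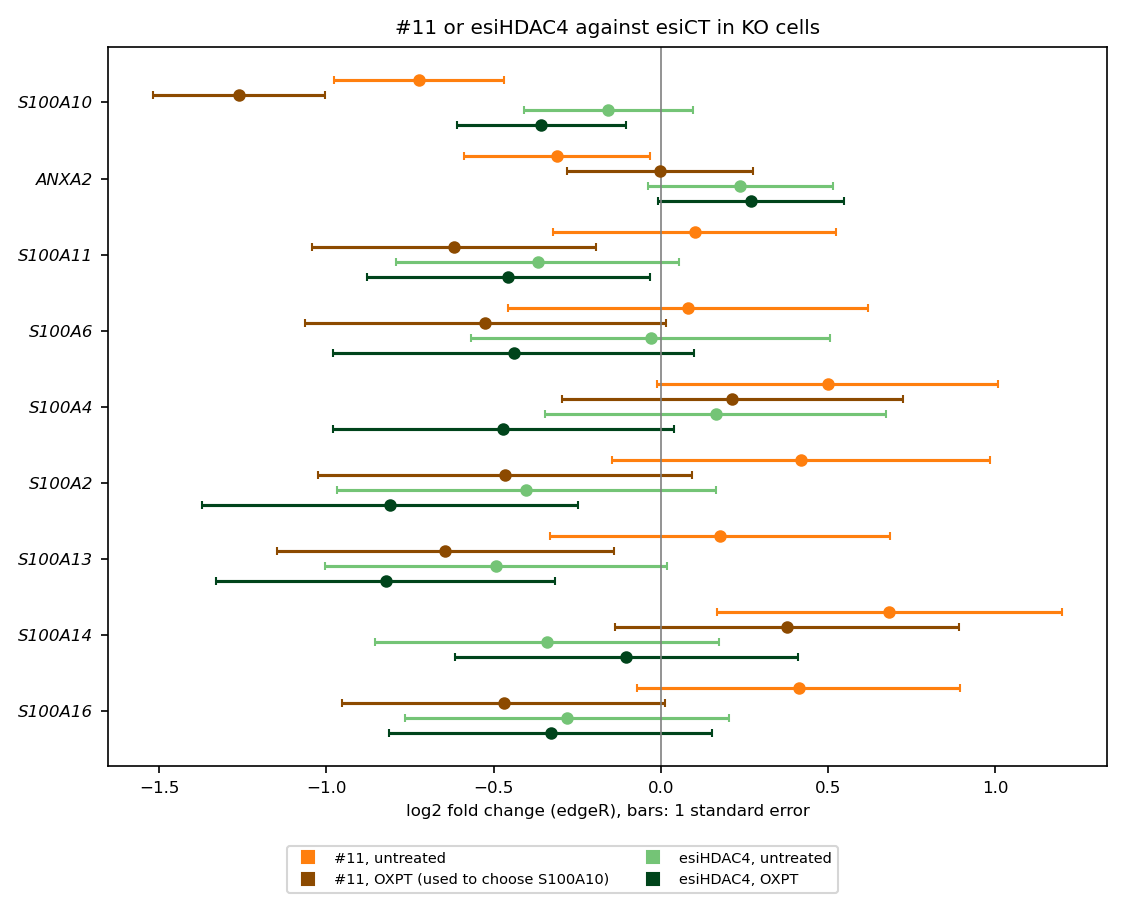
Log2 difference of #11 or esiHDAC4 from esiCT in KO cells, untreated and under OXPT (colours), for the 9 tested members (rows), with bars of 1 standard error. S100A10 lies furthest left with #11, at −0.72 untreated and −1.26 under OXPT (the contrast that chose it, drawn as a description), while S100A14 lies right of 0 with #11 in both states, at 0.68 and 0.38.

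The third comparison set KO esiCT against WT cells, whose esiRNA is not settled. Untreated, 0 of 9 members were called, against 0.291% of all genes, although all 9 had lower values in KO cells with a median log2 difference of −1.08. S100A14, a membrane-associated epithelial S100 protein, stood at 114, 133 and 159 CPM in KO esiCT and at 313, 240 and 1588 CPM in WT, so every KO library was lower, as for 3.52% of all genes (log2 difference −2.40, SE 0.54, adjusted p = 0.0665). Under OXPT it stood at 185, 157 and 345 CPM in KO esiCT and at 393, 444 and 757 CPM in WT, again without overlap, as for 4.11% of all genes (log2 difference −1.21, SE 0.52, adjusted p = 0.854). No member was called under OXPT, against 0.138% of all genes. At an unadjusted p under 0.05, 5 members passed untreated and 1 under OXPT, beside 709 and 667 of the 12356 genes tested. DESeq2 called 1 and 0 members, against 0.947% and 0.243% of all genes.

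Part of that pattern rests on replicate 3 of untreated WT cells. Without it, the untreated difference of S100A14 was −1.03 (SE 0.38, adjusted p = 0.999), and 3 of 9 members had higher rather than lower values in KO cells. With the replicate number as a block, S100A14 was called lower in untreated KO cells (−2.05, SE 0.34, adjusted p = 0.00358), the only one of 9 members, against 0.607% of all genes. With number 3 left out of every group, S100A14 was again the only member called, lower in KO cells in both states. The edgeR log2 difference was −1.16 (SE 0.17, adjusted p = 0.00651) untreated and −1.29 (SE 0.17, adjusted p = 0.00521) under OXPT. Over all genes 0.432% and 0.296% were called there. S100A10 differed by −0.26 (95% confidence interval −0.79 to 0.27) untreated, by 0.11 without that WT library, and by 0.01 (−0.52 to 0.54) under OXPT, where the KO libraries are among those that chose it.

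S100A10 and ANXA2 did not vary alike over the 24 libraries. Pearson's r of their log2 CPM was 0.37, which ranked ANXA2 3220th of 12355 genes by likeness to S100A10. S100A11 was the most alike member (r = 0.78, rank 145), followed by S100A6 (0.70), S100A2 (0.67), S100A16 (0.62), S100A13 (0.59), S100A14 (0.43) and S100A4 (0.34). The 5 genes most alike were RAC2 (0.902), IGFBP6 (0.897), ACTB (0.897), ZNF394 (0.886) and KRT15 (0.886). Among the members the closest pairs did not include S100A10: S100A6 with S100A13 (r = 0.95), S100A2 with S100A11 (0.93) and S100A2 with S100A16 (0.93). ANXA2 had r of at most 0.29 with the other 7 tested S100 genes. The 24 points share treatments, replicate numbers and the 2 libraries that stand apart, so these values describe the libraries only.

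**Figure D5:**
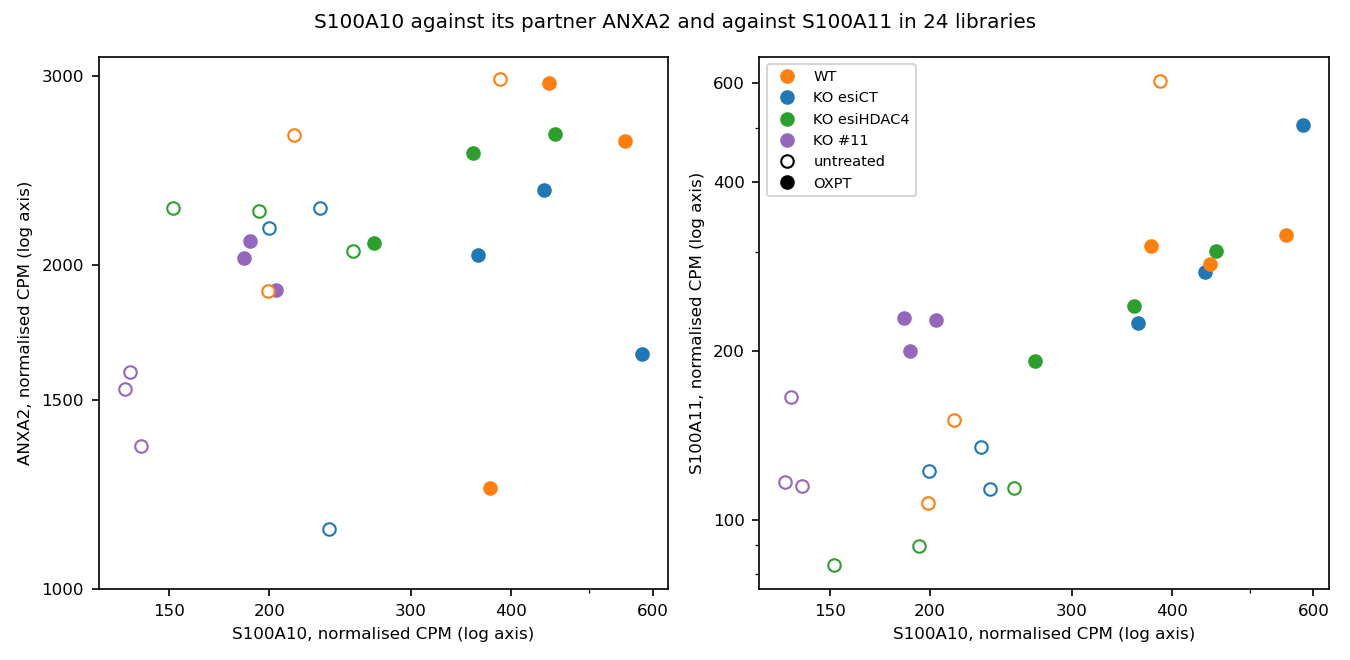
S100A10 (x axis) against ANXA2 (left) and S100A11 (right) in 24 libraries, as TMM-normalised CPM on log axes (colour, background; open, untreated; filled, OXPT). The 6 KO #11 libraries lie between 132 and 204 CPM of S100A10, S100A11 rises with S100A10 (r = 0.78), and ANXA2 spreads between 1138 and 2976 CPM with no such trend (r = 0.37).

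Other genes of the same families and pathways were read from lists. Of 12 other S100 genes only S100A3 and S100A5 passed the filter, and S100A3, a cysteine-rich S100 gene, was called higher with OXPT in KO esiCT (4.61 ± 1.43 to 15.5 ± 8.02 CPM, log2 fold change 1.73, adjusted p = 0.0265) and in KO esiHDAC4 (log2 fold change 1.84, adjusted p = 0.0192). Of 12 other annexins 9 were tested. ANXA4, an epithelial annexin, was called higher with OXPT in all 4 backgrounds, with log2 fold changes of 0.93 to 1.36, and ANXA1, the partner of S100A11, was called higher in KO esiCT (0.74), WT (0.64) and KO esiHDAC4 (0.68). Over all genes 5.1% to 6.44% were called higher with OXPT in these backgrounds. ANXA10 was called lower in KO esiCT than in WT, at 0.351 ± 0.178 against 17.4 ± 6.85 CPM untreated. These annexins thus passed a test that ANXA2 did not, although a difference between annexins was not tested.

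Of 10 genes listed as partners of the S100A10 and ANXA2 complex, 7 were tested and none was called in any of the 15 comparisons. Over all genes 0% to 12% were called per comparison, so few or none of 7 genes would be called at that share. AHNAK, the large scaffold protein that the complex binds, stood at 465 ± 315 CPM in KO esiCT and at 108 ± 7.71 CPM in KO #11 under OXPT (log2 difference −2.10, SE 0.69, adjusted p = 0.274), with a range of 125 to 745 CPM inside the first group. HLTF, a chromatin remodeller reported to bind the complex, stayed between group means of 3.47 and 14.2 CPM, and DLC1, another binding protein, was at 0 to 0.119 CPM.

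Of the plasminogen system, which S100A10 serves as a receptor, the genes PLAT, SERPINE2, PLAU and PLAUR are described here, and counts over the whole list are not given. PLAT, the tissue-type activator, was called higher with OXPT in WT (0.93) and with #11 against esiCT in untreated KO cells (49.8 ± 6.82 CPM with #11 and 21.1 ± 5.81 CPM with esiCT, log2 difference 1.24, adjusted p = 0.039). SERPINE2 was called lower with OXPT in WT (−0.74). PLAU, the urokinase activator, stood at 70.8 ± 14.2 CPM with #11 and at 20.5 ± 5.44 CPM with esiCT in untreated KO cells (log2 difference 1.79, SE 0.64, adjusted p = 0.184). Its receptor PLAUR lay between group means of 39.1 and 123 CPM and was not called in any comparison. PLAU was also spread widely in untreated WT cells, at 95.4 ± 133 CPM.

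Of 13 other partners and receptors of S100 proteins 10 were tested, and SYT1, a synaptotagmin that binds S100A13 in FGF1 release, was called lower with OXPT in all 4 backgrounds, with log2 fold changes from −2.04 in WT to −1.15 in KO esiCT. Of 15 other EF-hand calcium sensors 13 were tested, and none was called higher with OXPT in KO esiCT, KO esiHDAC4 or WT. Over all genes 6.23%, 6.44% and 5.1% were called higher there. RCN2, a calcium-binding protein of the endoplasmic reticulum, was called lower in KO esiCT (−0.87) and KO esiHDAC4 (−0.91), and EFHD2 was called higher in KO #11 (0.82). KRT8, an epithelial keratin, was called higher with OXPT in all 4 backgrounds (log2 fold change 1.01 to 1.29) and its partner KRT18 in KO esiCT (1.62) and KO esiHDAC4 (1.64). The other epithelial markers were not called with OXPT. KRT19 was at 0.79 to 1.13, while EPCAM (−0.40 to −0.01) and CDH1 (−0.48 to −0.15) were negative in all 4 backgrounds. CLDN7 was at 0.78 in KO esiCT, 0.59 in KO esiHDAC4, −0.65 in WT and −0.75 in KO #11. The part of the keratins in the S100 values was not tested.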

How the data were processed

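PolyA RNA of HCT-116 cells was sequenced after preparation with the Illumina Stranded mRNA Prep kit. Per the labels, the authors used Trimmomatic 0.39, STAR 2.7.11a and hg38, and deposited raw counts per gene in 3 columns (unstranded, forward, reverse); the annotation behind them is not given in the sources used here. Unstranded counts were used because reverse and forward totals had a ratio of 1.004 to 1.016. Rows that name no gene were left out of library sizes and tests (multimapping reads 3.17 to 3.91%, ambiguous 10.6 to 12.2%, no gene 2.58 to 5.79%). The study quantified with salmon, so its values are other than these.

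Symbols were taken from GENCODE, matching 62130 of 62757 identifiers with version and 62686 without. Genes with a mean of at least 64 counts in at least 1 group (12356) were tested with edgeR 4.0.16 in R 4.3.3 (TMM, quasi-likelihood, 1 coefficient per group, 24 libraries, 15 comparisons). The tests were checked on simulated data. Alternatives included DESeq2 1.42.0, reverse-strand counts, other filters and a replicate block. Same-numbered libraries had deviations correlated above 0.1 in every pair for 8 of 12 two-group comparisons, the 4 responses to OXPT, both of esiHDAC4 and both of KO with WT, which was read as pairing from the data, since the labels name no shared batch. That threshold is low. In KO against WT untreated, for example, libraries of different number reached 0.329, above the lowest same-number value of 0.113. Same-group libraries differed by more than sampling noise (chi-square per degree of freedom 8.31 to 224). All 10 members were named in every comparison, other lists by counts and at most 3 called genes, with AHNAK, PLAU, PLAUR, HLTF and DLC1 named throughout (1 further gene is not reported here), and the 5 genes most correlated with S100A10. Members and lists were chosen with earlier results of these data known.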

Additional observations from a re-analysis of the deposited data

How the results depend on the processing

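Of the 15 comparisons, the count of members called stayed the same in all of them with RLE normalisation and with no minimum fold change, and the 3 interaction terms had no member called under any alternative. With reverse-strand counts, 1 member was called for OXPT in KO esiHDAC4 and 1 for #11 against esiCT under OXPT. Over all genes 10.1% and 0.122% were called there in either direction. Counts for #11 against esiCT under OXPT are a description here, since that contrast chose S100A10. S100A10 was the member called there with reverse-strand counts, with DESeq2 and with the replicate block. With no count filter the counts were 1 (OXPT in WT), 7 (OXPT in KO esiHDAC4), 2 (OXPT in KO #11), 1 (#11 against esiCT under OXPT), 1 and 1 (#11 against esiHDAC4, untreated and under OXPT), and 7 and 1 (KO against WT, untreated and under OXPT). With 64 counts required in every group they were 3 in KO esiCT and 0 in KO esiHDAC4. With DESeq2 1 member was called for OXPT in WT, #11 against esiCT under OXPT, #11 against esiHDAC4 under OXPT and KO against WT untreated. In the same order, DESeq2 called 13.9%, 1.02%, 1.59% and 0.947% of all genes in either direction. With only the groups compared they were 1, 5 and 5 (OXPT in KO esiCT, KO esiHDAC4 and KO #11), 1 (#11 against esiCT, untreated) and 4 (#11 against esiHDAC4, untreated). Shares over all genes are not given for fits of only the groups compared or for the other filters, so those counts lack a background. Without number 3 in any group they were 7, 7 and 4 (OXPT in WT, KO esiHDAC4 and KO #11), 2 and 2 (#11 against esiCT), 4 and 3 (#11 against esiHDAC4) and 1 and 1 (KO against WT), and S100A14 and S100A16 turned to 0.61 and 0.80 for OXPT in WT. In the same order, 20.9%, 18% and 22.8%, 14.5% and 11.5%, 18% and 20.9%, and 0.432% and 0.296% of all genes were called in either direction. For OXPT in KO esiCT that fit kept a count of 5, against 17.4% of all genes. With both libraries that stand apart left out, chosen after seeing the data, they were 2, 6, 7 and 4 (OXPT in KO esiCT, WT, KO esiHDAC4 and KO #11), 1 (#11 against esiCT, untreated, against 4.72% of all genes) and 1 and 1 (#11 against esiHDAC4, against 6.06% and 1.54%), and S100A16 turned to 1.06 for OXPT in WT. Leaving out 1 library at a time gave 0 to 6 members for OXPT in KO esiCT, 0 to 5 in WT, 0 to 6 in KO esiHDAC4, 0 to 1 for #11 against esiCT under OXPT, for #11 against esiHDAC4 under OXPT and for KO against WT untreated, and 0 to 0 elsewhere, and S100A16 ran from −0.76 to 1.07 for OXPT in WT, the highest without WT untreated replicate 3. The cause of these changes was not tested, including where libraries were left out.

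With the replicate number as a block, the counts were 1, 5 and 1 for OXPT in WT, KO esiHDAC4 and KO #11, 1 for #11 against esiCT and 1 for #11 against esiHDAC4 under OXPT, and 1 for KO against WT untreated, and the block changed no other count by over 1.5 times. Over all genes, the block fit called 1.07% for #11 against esiCT and 2.08% for #11 against esiHDAC4 under OXPT. With the block and only the groups compared they were 7 and 5 for OXPT in KO esiHDAC4 and KO #11 and 3 for #11 against esiHDAC4 untreated. In the 4 comparisons with #11 on 1 side the numbers did not pair the libraries (lowest correlation −0.25). With 3 libraries per group, replicate spread and not read depth limits what could be called, since 9 members had at least 127 reads in every library, and S100P could not be tested. Over all genes DESeq2 called 409, 126, 40, 458, 196, 117 and 30 genes where edgeR called 63, 15, 1, 145, 12, 36 and 17 (#11 against esiCT untreated and under OXPT, esiHDAC4 against esiCT untreated, #11 against esiHDAC4 untreated and under OXPT, KO against WT untreated and under OXPT), and leaving out 1 library moved the counts for OXPT from 1398 to between 779 and 1880 in KO esiCT, from 1322 to between 829 and 2105 in WT, from 1480 to between 807 and 1912 in KO esiHDAC4 and from 1175 to between 555 and 1494 in KO #11.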

Other observations

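The 12 WT libraries whose titles and treatment entries disagree on OXPT enter no comparison, and their members' levels are given as CPM of the total gene counts. S100A10 ran from 184 to 501 CPM with a median of 248, inside the 137 to 536 CPM of the 24 other libraries in the same unit. ANXA2 ran from 1415 to 3702 CPM, S100A6 from 606 to 2723 CPM and S100A11 from 112 to 443 CPM.

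S100P was above its level in the other libraries in some of these 12. In the 6 libraries whose titles name PROTAC11 it stood at 13.1, 10.5 and 5.37 CPM (titles without OXPT) and at 4.32, 3.63 and 2.94 CPM (titles with OXPT). In the 6 whose titles name siHDAC4 it stood at 0.742, 0.454 and 3.76 CPM (titles untreated) and at 0.506, 0.374 and 0.236 CPM (titles with OXPT), and the 24 grouped libraries lay between 0 and 3.59 CPM. S100A14 stood at 731 to 1174 CPM in the first 6 and at 263 to 898 CPM in the others. These values were not tested.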
